A study of Mus musculus with 5 samples.

Results

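The initiation factors of cytosolic translation were followed in forebrain microglia of mouse pups at postnatal day 8. Members were the rows of the deposited expression table whose symbol begins with Eif and a digit from 1 to 6, without Eif2s3x, Eif2s3y and rows at exactly 0 in all libraries. This gave 55 of 23420 listed genes. Of these, 4 are Argonautes under an older name: Eif2c1, Eif2c2, Eif2c3 and Eif2c4 are Ago1, Ago2, Ago3 and Ago4, proteins that carry small RNAs. They met the rule by name only and are given apart, which leaves 51 genes of initiation factors and their regulators.

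The study compared microglia with and without a conditional deletion of the transcription factor gene Stat3. Sorted live cells bearing CD11b, a surface protein of microglia and other myeloid cells, gave 5 polyA RNA sequencing libraries, each from 2 to 4 pooled pups that shared a genotype and included males and females. The 3 libraries labelled knockout (cKO) came from Cx3cr1CreERT2/+:Stat3fl/fl pups, which carry floxed Stat3 and a tamoxifen-inducible Cre in the Cx3cr1 locus and received tamoxifen daily from postnatal day 1 to 3. The 2 control libraries came from Stat3fl/fl littermates without Cre, and the labels do not state whether these received tamoxifen. Floxed Stat3 was therefore shared by all libraries, while Cre and the altered Cx3cr1 copy came only with the knockout label. The treatment field of the labels reads untreated for every library.

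Translation initiation loads a methionine transfer RNA onto the small ribosomal subunit, brings that subunit to the capped end of a messenger RNA, and joins the large subunit at the start codon. eIF2 carries the initiator transfer RNA with GTP, eIF2B recharges eIF2, eIF3 is the scaffold on the small subunit, and eIF4 proteins recognise and unwind the capped end. Kinases that phosphorylate eIF2 turn it into an inhibitor of eIF2B, which lowers general translation and favours messages such as that of Atf4, the integrated stress response. Mutations of eIF2B genes cause a white matter disease of the brain.

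The deposited values were read as log2 values, each gene set around a reference outside the table, so they show differences between libraries and not levels of one gene against another. Microglial identity could be read only as distance from that reference. The mean over 10 microglia markers was 2.54 to 2.87 in the libraries labelled knockout and 2.78 and 3.04 in the controls. None of the 10 was at exactly 0. Of these 10, 2 had a higher mean in the libraries labelled knockout, against 60% of all tested genes. Stat3 itself was at 0.96, 0.07 and 0.24 under the knockout label against 0.08 and 0.45 for controls, so its value per gene does not bear out the labels. Such a value does not show which exons were read, so it cannot tell whether the floxed part was lost. Groups are called by their labels below. Cx3cr1 stood at 3.36, 3.34 and 3.00 against 4.32 and 3.95, below both controls, as did 7.07% of all tested genes. Its log2 difference was -0.90 with SE 0.39 (limma adjusted p = 0.637). Among markers of other CD11b-positive cells, the mean over 4 tested monocyte markers was 0.48 to 0.93 against -0.14 and 0.18. The mean over 5 tested neutrophil markers was 0.68 to 1.5 against 0.10 and 0.14, and that over 5 border macrophage markers was 0.83 to 1.45 against 0.54 and 0.40. Of the tested markers of these 3 cell types, 3 of 4, 4 of 5 and 4 of 5 had a higher mean in the libraries labelled knockout. The share among all tested genes was 60%. Ly6c2 and Elane were listed at 0 in all libraries. The part of these cells in any difference below was not tested, and in such bulk samples fewer cells of a type and less RNA per cell cannot be told apart.

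Many members rested on few reads. Genes with the same small number of reads in several libraries take nearly the same value there, in a fixed pattern, and a gene was tested only if at most 3 libraries shared its lowest value in this way. Of the 55 members, 46 were tested, within 9394 tested genes in all. The other 9 were Eif2b3, Eif2c2, Eif3e, Eif3j2, Eif3m, Eif4e, Eif4e3, Eif4ebp3 and Eif5a2. Eif4e, the main cap-binding protein gene, stood at 1.69 in control replicate 1 and at its tied lowest value, between -0.24 and -0.26, in the 4 other libraries. Eif2b3 and Eif3m stood above the tied value in control replicate 2 alone, at 0.41 and 0.40. Eif4ebp3 did so in knockout replicate 1 alone, at 0.54. Over all genes, 1924 were tied at the lowest value in 3 libraries and were tested. Control replicates 1 and 2 were among the tied libraries in 1589 and 1228 of them. Knockout replicates 1, 2 and 3 were so in 978, 998 and 979. The part of such ties in the group differences below was not tested. Sequence shared with other genes can also split reads of 40 bases. For 93.6% of the 40-base words in Eif3j2 transcripts, the same word occurs in another gene, chiefly Eif3j1, and the shares were 66.6% for Eif4a1, 66.0% for Eif4ebp3 and 42.9% for Eif3m. The median share was 13.1% among the 9 members not tested and 0.306% among the 46 tested, and its part in the missing values was not tested.

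No initiation factor gene passed the threshold. With limma and Benjamini-Hochberg adjustment over all tested genes, 0 of 46 members reached an adjusted p under 0.05, as did 0 of 9394 genes (0%), and the smallest adjusted p among members was 0.637, for Eif2ak4. At an unadjusted p under 0.05 stood 1 member, higher in the libraries labelled knockout, where 5.54% of all tested genes were higher and 2.1% lower. This count was 0 without knockout replicate 1 or 2 and 4 without knockout replicate 3. Over all 9394 tested genes it was 717 in the reported fit, and 554, 584 and 627 without knockout replicates 1, 2 and 3. The mean was higher in the libraries labelled knockout for 34 of 46 members and lower for 12, against 60% higher among all tested genes. With each library centred on its median the split was 24 higher of 46, against 42.4% of all tested genes, and without control replicate 1 it was 26, against 55.5%. With quantile normalization it was 29 of 46, against 49.2%. With genes tied at the lowest value in 4 or 5 libraries kept, it was 39 of 55, against 73.8%. The median log2 difference of the members was 0.32, against 0.14 for all tested genes. Every library labelled knockout stood above both controls for 12 members (26.1%), where this held for 17.2% of all tested genes. Leaving out separations small enough to be ties, it held for 8 members (17.4%), where the background was 11.9%. Every library labelled knockout stood below both controls for 1 member, Eif4e2 (2.17%), against 7.07% of genes, or 6.64% with possible ties left out. Errors were wide throughout: the SE of a member's difference ran from 0.37 to 0.65.

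The gap between the 2 control libraries was set beside the group difference. A gap between single libraries varies more than a difference of means, so it tends to be the larger even where groups do not differ. The gap between the control libraries exceeded the group difference in 28 of 46 members (60.9%), and in 62.4% of all tested genes. The median gap was 0.60 over the members, and the median size of the group difference 0.34. Set against control replicate 1 alone, the mean of the libraries labelled knockout was higher in 39 members, with a median difference of 0.48. Against control replicate 2 alone it was higher in 26, with a median of 0.19. The sign was the same against each control for 23 members, of which 21 were higher and 2 lower (Eif4e2 and Eif3k). Higher against each control were 45.7% of the members and 36.7% of all tested genes, and lower 4.35% and 17.3%. The sign was opposite for the other 23 (50%, against 46% of all tested genes).

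**Figure D1:**
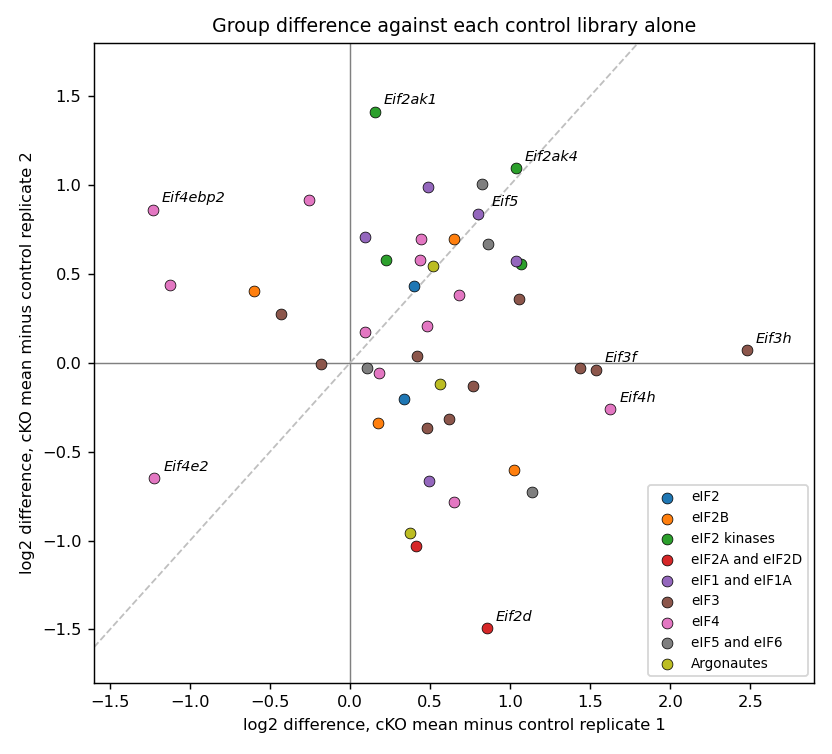
Each point is 1 of the 46 tested members. The x axis gives the log2 difference between the mean of the 3 libraries labelled knockout and control replicate 1, the y axis the same against control replicate 2, and the dashed line marks equal values. The 23 members at the upper right and lower left have the same sign against each control, among them all 4 eIF2 kinases and Eif4e2, while Eif3h lies at 2.48 against one control and at 0.07 against the other.

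By library, the members' median stood at 0.48, 0.35 and 0.30 in knockout replicates 1, 2 and 3, at -0.18 in control replicate 1 and at 0.31 in control replicate 2. Control replicate 2 thus lay inside the range of the libraries labelled knockout. Over all tested genes the medians were 0.24, 0.21, 0.17, -0.16 and 0.08 in the same order, so control replicate 1 was also the lowest library over the whole table.

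**Figure D2:**
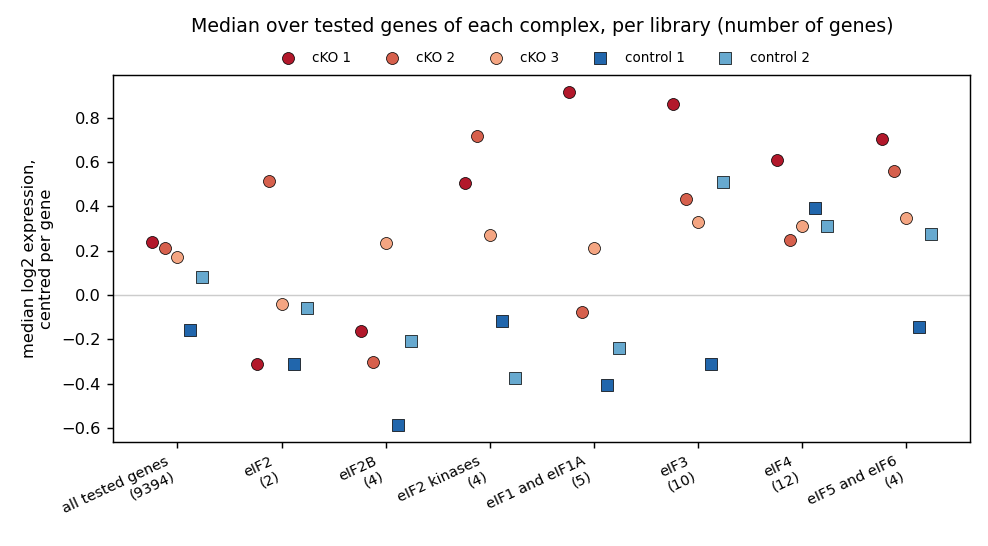
Median log2 expression, centred per gene, over the tested genes of each complex in each library, with circles for the libraries labelled knockout and squares for controls. The number under each name is the number of tested genes. Both controls lie below all 3 libraries labelled knockout for all tested genes, the eIF2 kinases, the eIF1 group and the eIF5 and eIF6 group. Control replicate 2 lies among the libraries labelled knockout for eIF2, eIF2B, eIF3 and eIF4, and control replicate 1 for eIF4.

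Of the kinases that phosphorylate eIF2, all 4 had a higher mean in the libraries labelled knockout, against 60% of all tested genes. Their median difference was 0.80. All 4 were higher against each control alone, as were 36.7% of all tested genes. None passed the threshold. Eif2ak4 encodes GCN2, the sensor of uncharged transfer RNA (chromosome 2, 118388618 to 118475234, GRCm38). It stood at 0.44, 0.66 and -0.32 under the knockout label against -0.78 and -0.84 in the controls. All 3 values lay above both controls, and the log2 difference was 1.07 with SE 0.43 and a 95% interval from 0.11 to 2.02 (limma unadjusted p = 0.0327, adjusted p = 0.637). The controls lay 0.06 apart. Eif2ak3 encodes PERK, the kinase of the endoplasmic reticulum stress response (chromosome 6, 70844515 to 70905245). It stood at 0.58, 0.87 and 0.48 against -0.42 and 0.08, so the groups did not overlap. The difference was 0.81 with SE 0.39 and an interval from -0.07 to 1.69 (limma adjusted p = 0.679).

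The remaining kinases overlapped between the groups. Eif2ak1 encodes HRI, which responds to low heme. It stood at 0.20, 0.78 and 0.07 against 0.19 and -1.06, and the low value of control replicate 2 set the difference of 0.78 (SE 0.48), which was 0.15 without that library. Eif2ak2 encodes PKR, which binds double-stranded RNA and is induced by interferon. It stood at 1.41, 0.63 and 1.13 against 0.83 and 0.48, a difference of 0.40 with SE 0.41. Knockout replicate 2 lay below control replicate 1.

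Because the libraries labelled knockout are meant to lack STAT3 and these kinases had higher means, the kinase promoters were read for the motif that STAT proteins bind. The pattern TTCNNNGAA, which reads the same on both strands, was searched in the RefSeq promoter windows of GRCm38.p6, from 250 bases before to 50 after each start. Of the 55 members, 43 were matched to a window, and 5 of these (11.6%) held the pattern: Eif2ak2, Eif2ak3, Eif3c, Eif3g and Eif4e. Among all genes with a window, 9.55% held it, so the share in members lay near that of other genes. No match was found for the kinase genes Eif2ak1 and Eif2ak4, for lack of either the pattern or a matched window. The matches of the kinases and of Eif3c are shown 5′ to 3′ on the strand of the gene, with the match in capitals:
Eif2ak2, chr17:78882722-78882770, minus strand: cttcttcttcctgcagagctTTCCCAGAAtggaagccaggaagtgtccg
Eif2ak3, chr6:70844366-70844414, plus strand: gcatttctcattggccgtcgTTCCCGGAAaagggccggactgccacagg
Eif3c, chr7:126566405-126566453, minus strand: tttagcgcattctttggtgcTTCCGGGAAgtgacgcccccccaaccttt
The matches begin 178, 129 and 67 bases before the start site. They describe these letters only. A pattern of interferon response elements, 2 GAAA blocks with any 2 bases between them on either strand, was found for 3 members (6.98%), Eif2ak2, Eif2s1 and Eif3a, against 3.99% of all genes. A pattern of ATF4 response elements, TGATGNAAN on either strand, was found for 0 members and for 4.50% of all genes.

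The eIF2 subunits did not separate. Eif2s1 encodes the alpha subunit that the kinases phosphorylate. It stood at 0.31 and 0.24 in knockout replicates 2 and 3, and at its tied lowest value in knockout replicate 1 and both controls, from -0.32 to -0.35. The difference of 0.41 (SE 0.40) therefore rests on 2 libraries. Eif2s2, the beta subunit gene, stood at -0.30, 0.72 and -0.33 against -0.30 and 0.23, a difference of 0.07 with SE 0.46. In this gene 23.9% of 40-base words occur in another gene. The gamma subunit genes were left out by the rule.

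The subunits of eIF2B, the exchange factor of eIF2, gave a median difference of 0.07 over 4 tested genes, below that of all tested genes. Eif2b1, of the regulatory part, stood at -0.59, -0.59 and -0.06 against -0.59 and -0.08. Each group held 1 library above the tied lowest value. Eif2b2 stood at -0.58, -0.01 and 0.79 against -0.58 and -0.63, with knockout replicate 1 tied with the controls and a difference of 0.67 (SE 0.47). Eif2b4 stood at 0.26, 0.48 and -0.51 against -0.95 and 0.68. Here the controls held both the lowest and the highest value. Eif2b5, the catalytic subunit gene, stood at 0.43, -0.78 and 0.53 against 0.66 and -0.34, a difference of -0.10 with SE 0.52, and the groups overlapped. Eif2a and Eif2d, which encode alternative factors for bringing a transfer RNA to the ribosome, were the only group in which both means were lower. Eif2a stood at -0.38, -0.38 and 0.85 against -0.38 and 1.06. Eif2d stood at 0.90, 0.15 and 0.07 against -0.48 and 1.86. In both genes control replicate 2 was the highest library and control replicate 1 was low, and the differences of -0.31 and -0.32 turned to 0.41 and 0.85 without control replicate 2.

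**Figure D3:**
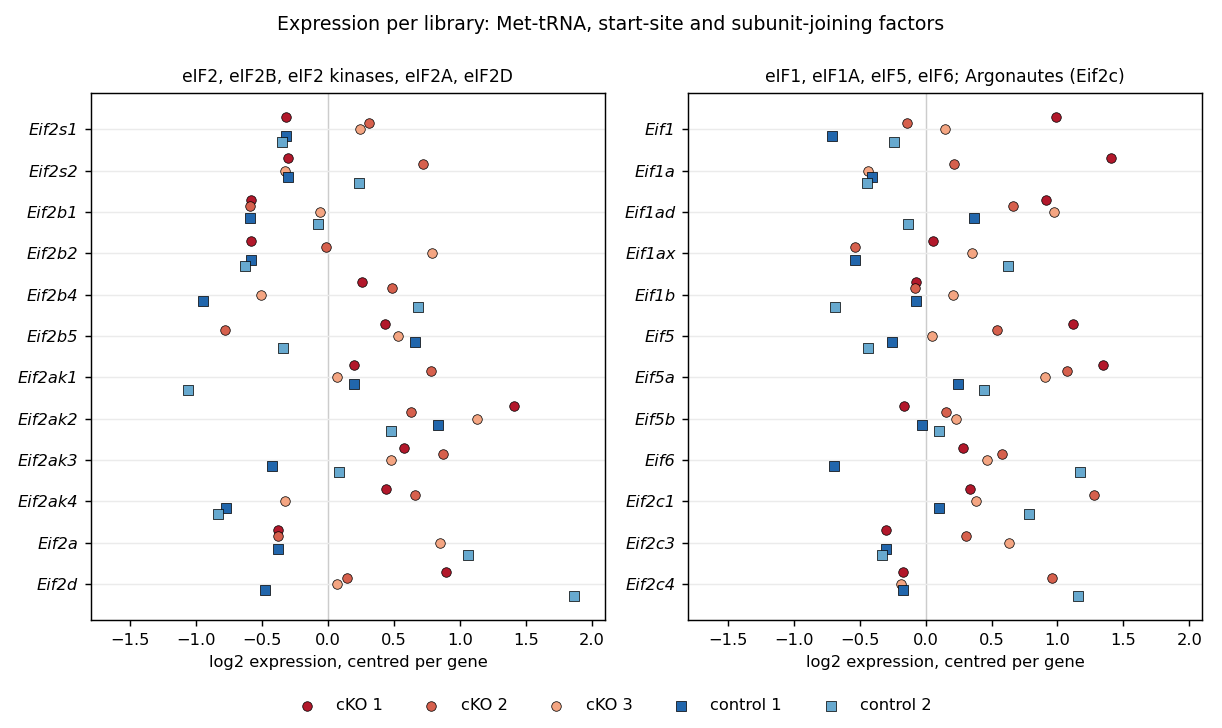
Log2 expression, centred per gene, of the tested members of the eIF2, eIF2B, kinase, eIF2A and eIF2D groups (left) and of the eIF1, eIF5 and eIF6 groups and Argonautes (right), 1 point per library, offset vertically so that ties can be seen. Red circles (knockout) lie right of both blue squares (controls) in Eif2ak3, Eif2ak4, Eif1ad, Eif5 and Eif5a, while Eif2s1, Eif2b2 and Eif2a show libraries tied at the lowest value.

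The eIF1 and eIF1A group holds factors that scan for the start codon and, by its name, Eif1ad. Means were higher in 4 of its 5 genes (80%, against 60% of all tested genes), with a median difference of 0.74. Eif1, which keeps the scanning ribosome open, stood at 0.99, -0.14 and 0.14 against -0.71 and -0.24. The lowest library labelled knockout lay just above the higher control, by an amount small enough to be a tie, and the difference was 0.80 with SE 0.45 (limma adjusted p = 0.746). Eif1ad, named for its eIF1A-like domain, stood at 0.92, 0.67 and 0.98 against 0.37 and -0.14. Its groups did not overlap, with a difference of 0.74 and SE 0.39 (limma adjusted p = 0.711). Eif1a stood at 1.40 and 0.22 in knockout replicates 1 and 2 and at its tied lowest value, from -0.41 to -0.44, in knockout replicate 3 and both controls. Eif1b stood at -0.07, -0.08 and 0.21 against -0.07 and -0.69. Knockout replicates 1 and 2 and control replicate 1 were tied there above control replicate 2. Eif1ax, the X-linked eIF1A gene, had a difference of -0.09.

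The 4 tested genes of eIF5, eIF5A, eIF5B and eIF6 all had means higher in the libraries labelled knockout, against 60% of all tested genes. Their median difference was 0.48. Eif5 makes eIF2 release its GTP energy at the start codon. It stood at 1.12, 0.54 and 0.05 against -0.26 and -0.44, without overlap (chromosome 12, 111538016 to 111546752). The difference was 0.91 with SE 0.43 and a 95% interval from -0.06 to 1.89 (limma adjusted p = 0.674). Eif5a encodes the hypusine-bearing factor that helps ribosomes through difficult peptide bonds. It stood at 1.35, 1.07 and 0.91 against 0.25 and 0.44, without overlap, and the difference was 0.76 with SE 0.38 (limma adjusted p = 0.697). In both genes the controls lay close together at the low end. Eif5b, which joins the subunits, stood at -0.16, 0.15 and 0.23 against -0.03 and 0.10, with an interval of the difference from -0.81 to 0.89. Eif6, which keeps the large subunit from joining early, stood at 0.29, 0.58 and 0.46 against -0.69 and 1.17. The libraries labelled knockout lay between the controls.

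The eIF3 result depended on which control it was set against, and 2 controls cannot show which of them is unusual. Of 10 tested subunits 8 had a higher mean in the libraries labelled knockout (80%, against 60% of all tested genes). Their median difference was 0.27. Groups without overlap were found for 0 of the 10, where 17.2% of all tested genes lay above both controls and 7.07% below. The gap between the controls exceeded the group difference in 9 of 10 (90%, against 62.4% of all tested genes). Control replicate 1 lay below control replicate 2 in 8 of 10 (80.0%, against 47.8% of all tested genes). The median difference was 0.69 against control replicate 1 alone and -0.02 against control replicate 2 alone. Eif3h, a subunit of the octameric core (chromosome 15, 51786558 to 51865523), had the highest difference among the members. Its values were 1.44, 0.92 and 0.67 under the knockout label, 0.94 in control replicate 2 and -1.47 in control replicate 1. The difference of 1.27 with SE 0.64 (limma adjusted p = 0.697) was 0.07 without control replicate 1. In this gene 31.7% of 40-base words occur in another gene.

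Eif3f, also of the core, stood at 1.51, 1.43 and 1.39, against -0.09 in control replicate 1 and 1.48 in control replicate 2. Its difference of 0.75 (SE 0.49) became -0.04 without control replicate 1. Eif3g, an RNA-binding subunit, stood at 0.85, 0.25 and 0.35 against -0.95 and 0.51, and its difference of 0.70 became -0.03 without that library. In all 3 genes control replicate 1 lay below the 4 other libraries, and control replicate 2 lay among the libraries labelled knockout or just beside them. Eif3d, which can itself bind caps, stood at 0.74, -0.12 and 0.31 against -0.75 and -0.05. Its difference of 0.71 (SE 0.43) was 0.36 without control replicate 1. Among the other 6 tested subunits (Eif3a, Eif3b, Eif3c, Eif3i, Eif3k and Eif3l) differences ran from -0.09 to 0.32. Eif3a, which encodes the largest subunit, had control replicate 1 as its highest library at 1.01, and Eif3k stood at 0.39 to 1.23 against 1.00 and 0.83.

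**Figure D4:**
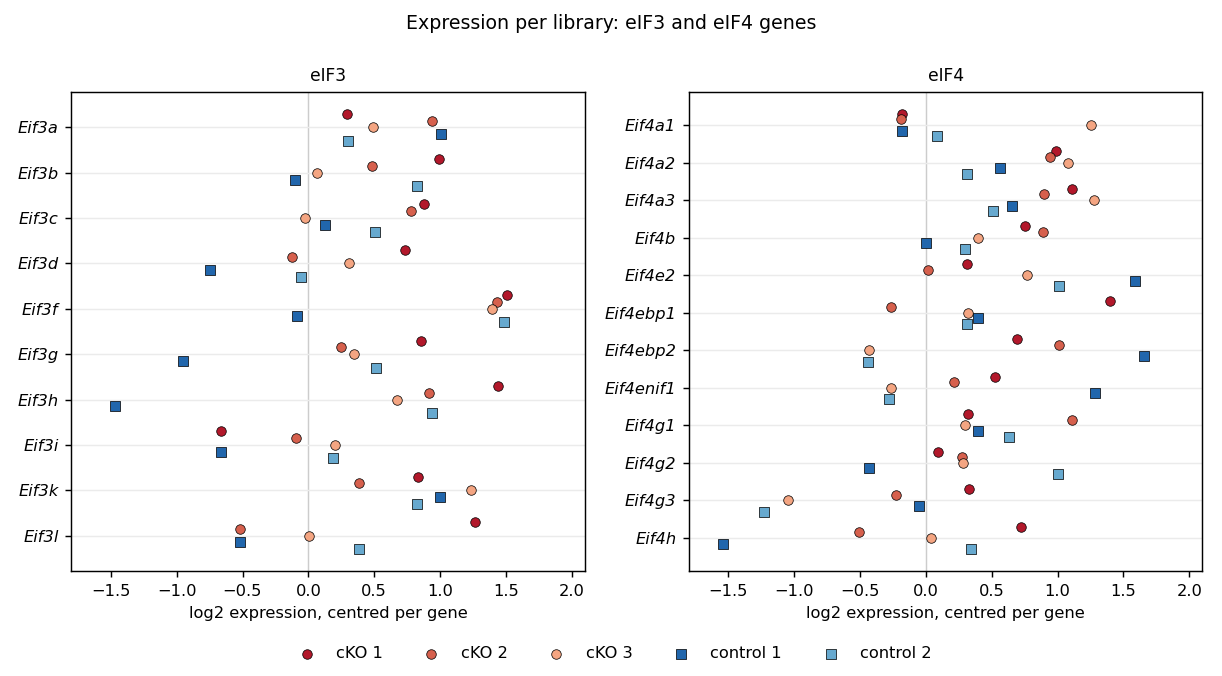
Log2 expression, centred per gene, of the tested eIF3 (left) and eIF4 (right) genes, 1 point per library, offset vertically. Control replicate 1 (dark square) lies apart on the left in Eif3f, Eif3g, Eif3h and Eif4h, and on the right in Eif4e2, Eif4ebp2 and Eif4enif1.

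Of 12 tested eIF4 genes 8 had a higher mean (66.7%, against 60% of all tested genes) and 4 a lower one. The median difference of the 12 was 0.23. The means were higher in 5 of 5 genes of the helicases and their cofactors (median difference 0.53), in 2 of 3 scaffolds, and in 1 of 3 genes of the inhibitors and transporter. Differences between these roles were not tested. Eif4a2, a helicase subunit, stood at 0.99, 0.95 and 1.08 against 0.57 and 0.31, and its groups did not overlap. Eif4a3, the related helicase of the exon junction complex, stood at 1.11, 0.89 and 1.28 against 0.66 and 0.51, also without overlap. Eif4b, a cofactor that stimulates the helicase, stood at 0.75, 0.89 and 0.39 against -0.0012 and 0.30. Its lowest library labelled knockout lay just above the higher control. The differences of the 3 genes were 0.57, 0.51 and 0.53 with SE 0.37, 0.38 and 0.39 (limma adjusted p = 0.769, 0.782 and 0.782). In Eif4a3, 33.5% of 40-base words occur in another gene. Eif4h, another cofactor, stood at 0.72, -0.50 and 0.04 against -1.54 and 0.34, and its difference of 0.68 became -0.26 without control replicate 1. Eif4a1, the major helicase subunit in most cells, was above its tied lowest value in knockout replicate 3 at 1.25 and control replicate 2 at 0.08.

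Of the cap-binding genes only Eif4e2 was tested. It encodes 4EHP, a cap-binding relative of eIF4E that represses translation (chromosome 1, 87213914 to 87240488). It stood at 0.32, 0.01 and 0.77 under the knockout label against 1.59 and 1.01 in the controls. All 3 values lay below both controls, the only member for which this held. The difference was -0.94 with SE 0.42 and a 95% interval from -1.87 to 0.0041 (limma unadjusted p = 0.0508, adjusted p = 0.654). Leaving out control replicate 1 gave -0.65, and leaving out the other control gave -1.22. Of the other cap-binding genes, Eif4e stood above its tied lowest value in control replicate 1 alone. Eif4e3 stood between -0.07 and -0.08 in all libraries, so neither was tested.

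The inhibitors that hold eIF4E overlapped between the groups. Eif4ebp1, a target of mTORC1, stood at 1.40, -0.26 and 0.32 against 0.39 and 0.31, with the controls inside the range of the libraries labelled knockout. Eif4ebp2, the form prominent in brain, stood at 0.69, 1.01 and -0.43 against 1.66 and -0.44. Its highest and its lowest value were both controls. The differences were 0.13 (SE 0.51) and -0.19 (SE 0.65). Eif4enif1, which encodes the eIF4E transporter, stood at 0.53, 0.22 and -0.27 against 1.29 and -0.28. The scaffold genes Eif4g1, Eif4g2 and Eif4g3 had differences from -0.07 to 0.33, each smaller than the gap between the controls.

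**Figure D5:**
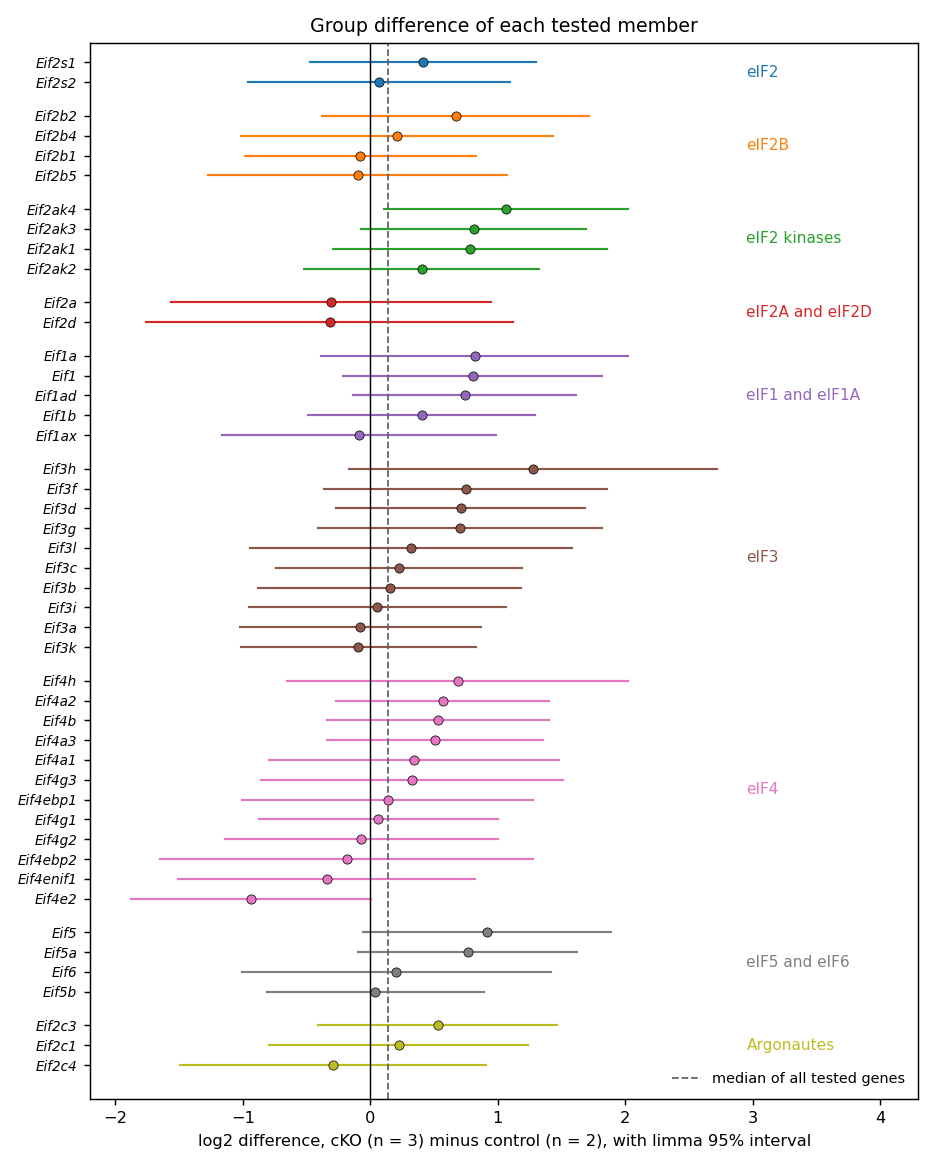
Log2 difference of each tested member, mean of the 3 libraries labelled knockout minus mean of the 2 controls, with limma 95% intervals as bars. The dashed line marks the median of all tested genes at 0.14. The interval lies above 0 for Eif2ak4 and spans 0 for the other members, with its upper end at 0.0041 for Eif4e2.

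The Argonautes listed under Eif2c names gave differences from -0.29 to 0.53 in the 3 tested genes. Eif2c1 (Ago1) stood at 0.33, 1.28 and 0.38 against 0.10 and 0.78. Eif2c3 (Ago3) stood at 0.31 and 0.63 in knockout replicates 2 and 3 and at its tied lowest value in the other libraries. Eif2c4 (Ago4) stood above its tied value in knockout replicate 2 at 0.96 and control replicate 2 at 1.16. None of the 3 had groups that separated beyond a tie.

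Genes around initiation were read from the same fit. Of the integrated stress response list, which holds targets and partners of ATF4, 24 of 28 genes were tested and 0 passed the threshold. Means were higher in 15 and lower in 9, with a median of 0.34, against 60% higher and a median of 0.14 among all tested genes. At an unadjusted p under 0.05 in limma stood 3 higher and 0 lower, where all tested genes gave 5.54% and 2.1%. Slc7a11, the cystine transporter gene, stood at 0.64, 0.10 and 0.85 against -0.83 and -0.89, a difference of 1.39 with SE 0.40 (limma adjusted p = 0.609). Shmt2, a mitochondrial serine enzyme gene, stood at 1.03, 0.46 and 1.54 against -0.56 and -0.04, a difference of 1.31 with SE 0.44 (limma adjusted p = 0.615). Slc3a2, the heavy chain partner of Slc7a11, stood at 1.40, 1.02 and 1.39 against 0.10 and 0.52, a difference of 0.96 with SE 0.39 (limma adjusted p = 0.637). All 3 stood without overlap, and were picked for the smallest p. In the whole list 5 genes (20.8%) lay above both controls and 0 below, against 17.2% and 7.07% of all tested genes. The factor genes themselves overlapped between the groups: Atf4 stood at 1.8, 0.43 and 0.88 against 0.56 and 0.49, and Ddit3 at 0.13, -0.17 and 0.23 against 0.19 and 0.18. Ppp1r15a, which encodes the phosphatase subunit that reverses eIF2 phosphorylation, stood at 2.54, 2.18 and 2.06 against 3.06 and 1.01.

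Of the mTORC1 and cap regulation list 24 of 27 genes were tested, 14 with a higher and 10 with a lower mean (58.3% higher, against 60% of all tested genes), with a median of 0.13, and 0 passed. At an unadjusted p under 0.05 in limma stood 2 higher and 1 lower, against 5.54% and 2.1% of all tested genes. Mtor, the kinase that frees eIF4E from its inhibitors, stood at 0.64, 0.11 and 0.51 against -0.83 and -0.89, a difference of 1.28 with SE 0.39 (limma adjusted p = 0.609). Paip1, a partner of the poly(A)-binding protein that stimulates initiation, stood at -0.23, -0.23 and -0.85 against 0.16 and 1.04. Paip2b, from a family that counters that protein, stood at 0.57, 0.27 and -0.20 against -0.68 and -0.73. The groups did not overlap in these 3 genes, which were picked for the smallest p. The differences of Paip1 and Paip2b were -1.04 (SE 0.44, limma adjusted p = 0.637) and 0.92 (SE 0.40, limma adjusted p = 0.654). In the whole list 4 genes (16.7%) lay above both controls and 2 (8.33%) below, against 17.2% and 7.07% of all tested genes.

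Among other genes of initiation, elongation and termination 17 of 21 were tested, 13 with a higher and 4 with a lower mean (76.5% higher, against 60%), with a median of 0.38, and 0 passed. At an unadjusted p under 0.05 in limma stood 2 higher and 0 lower, again beside 5.54% and 2.1% of all tested genes. Bzw1, which encodes a protein that imitates eIF5, stood at 0.69, 1.12 and 1.16 against -0.03 and -0.67, a difference of 1.34 with SE 0.41 (limma adjusted p = 0.609). Denr, which helps ribosomes restart, stood at 1.2, 0.97 and 0.64 against -1.43 and 0.18, a difference of 1.56 with SE 0.51 (limma adjusted p = 0.615). Both stood without overlap, and both were picked for a small p. In the whole list 4 genes (23.5%) lay above both controls and 0 below, against 17.2% and 7.07% of all tested genes. Abce1, which recycles ribosomes, stood at 0.61 and 0.61 in knockout replicates 1 and 2 and at its tied lowest value in the other libraries. The elongation factor genes Eef1a1 and Eef2 had differences of 0.02 and -0.06, with SE 0.39 and 0.48.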

How the data were processed

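Reads were mapped by the authors with TopHat2 2.0.13 to GRCm38/mm10, and DESeq2 is named without a role, per the submitters' processing notes. The read counter and gene annotation were not stated. The deposited values were taken as log2 values centred per gene, a scale inferred from their range of -4.12 to 7.69. Depth per library is unknown. Of 23420 genes, 27 names turned into dates or numbers, 6970 genes at exactly 0, and genes tied at the lowest value in 4 or 5 libraries (tolerance 0.02 of the span) were left out. This way of finding ties was chosen after the values were seen. Pairs of tied libraries were not recognised. Ties with another library below them were kept, since they cannot be 0 reads. The 9394 remaining genes were fitted with limma 3.58.1 in R 4.3.3 (~ group, eBayes) on the values as deposited. Errors are SE, intervals are 95%, and p-values are Benjamini-Hochberg adjusted over all tested genes at 0.05. Replicates are separate pools of pups. The fit was tested on simulated data. Members and lists were chosen with earlier results of these data known. Values per library are given for eIF2, eIF2B, the kinases, tested cap-binding genes and inhibitors, the 4 members with the largest difference in each other group, members without overlap, and the 3 genes of each other list with the smallest p. Others named were chosen after their values were seen. Coordinates are from GENCODE vM21, counted from 1, and promoters from RefSeq. Alternatives were other filters, scalings, variance models, the replicate block and leaving out each library.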

Additional observations from a re-analysis of the deposited data

How the results depend on the processing

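Initiation factor genes past the threshold numbered 0 under every alternative run, and all genes past it 0 under every alternative except without the filter on low values, where 1 gene (Sord, limma adjusted p = 0.00853) passed. With libraries centred on their median, members above both controls numbered 5, where 8.35% of all tested genes lay above, the members' median was 0.077, the eIF2, eIF2B and eIF4 medians turned to -0.0068, -0.18 and -0.015, all tested genes had a median of -0.11 and 42.4% had a higher mean. With quantile normalization the eIF2B median turned to -0.092 and the eIF4 median was 0.032, and 49.2% of tested genes had a higher mean. Without the filter the eIF2B median turned to -0.081, from including Eif2b3. Single genes turned with median centring: Eif2b4 to -0.034, Eif2s2 to -0.18, Eif4ebp1 to -0.11, Eif6 to -0.043, Eif5b to -0.21 and Eif2c1 to -0.024. With quantile normalization Eif2s2 turned to -0.075 and Eif5b to -0.21. Labels share replicate numbers 1 and 2 without stating a pairing. Deviations of same-numbered libraries correlated at 0.00233 and -0.067 over genes. The replicate block, which drops knockout replicate 3, gave 0 genes past the threshold and turned Eif4ebp2 to 0.24 and Eif5b to -0.043. Counts of separated groups were not run with the block or with trend and robust estimation.

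Leaving out each library, members above both controls numbered 13 to 24 and those below 1 to 8, with fewer libraries to separate. Without control replicate 1 they were 19 and 8, where 41.8% of all tested genes lay above and 22.3% below, and without control replicate 2 they were 24 and 5, where the shares were 34.6% and 23.4%. Members at an unadjusted p under 0.05 in limma numbered 1 in the reported fit, 6 without the filter and 3 with the replicate block. They numbered 0 to 4 leaving out each library labelled knockout, and fits that leave out a control are not counted here. Over all genes the same fits gave 717, 1042, 390 and 554 to 627. Leaving out each library in turn, controls included, the members' median ran from 0.19 to 0.48 and that of eIF2 from 0.0088 to 0.42. The median ran from 0.026 to 0.41 for eIF2B, from -0.020 to 0.69 for eIF3 and from 0.10 to 0.35 for eIF4. Ranges that included a change of sign were -0.34 to 0.18 for Eif2b1, -0.60 to 1.03 for Eif2b4, -0.60 to 0.40 for Eif2b5, -0.28 to 0.33 for Eif2s2, -0.32 to 0.51 for Eif4ebp1, -1.23 to 0.86 for Eif4ebp2, -0.039 to 1.53 for Eif3f, -0.032 to 1.44 for Eif3g, -0.26 to 1.63 for Eif4h, -0.73 to 1.14 for Eif6, -0.043 to 0.16 for Eif5b, -1.49 to 0.85 for Eif2d, -1.03 to 0.41 for Eif2a, -0.96 to 0.37 for Eif2c4 and -0.12 to 0.56 for Eif2c1. The sign held in every alternative for 19 of 34 members, which were picked partly for large differences or groups without overlap. These ranges and this count cover those 34 alone. Of the tested members outside them, Eif1ax, Eif3a, Eif3b, Eif3i, Eif3l, Eif4enif1, Eif4g1, Eif4g2 and Eif4g3 had opposite signs against the 2 controls. Eif3c, Eif3k and Eif4a1 had the same sign. Over all 46 tested members the sign was opposite for 23. Where groups do not overlap, as in Eif2ak3, Eif2ak4, Eif4e2, Eif5 and Eif5a, leaving out a library or blocking cannot turn the sign. The cause of each change was not tested. Ties at few reads limit how small a difference can be read.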
